A study of Mus musculus with 16 samples.

Results

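The genes described here build and control the actin cytoskeleton. The list named 46 of them: the non-muscle actins, and the proteins that hold actin monomers or that sever, cap, branch, bundle, anchor and pull on actin filaments or signal to them. They were chosen by name, and a probe set was taken as a member where its single annotated gene symbol was on the list. This gave 109 probe sets of 43 genes, of 45037 probe sets tested and 18193 genes in all, and 32 of the 43 genes had several probe sets. Arpc1b was annotated only on probe sets with more than 1 symbol, and Arpc1b, Arpc3 and Actr2 were not analysed here. A gene is represented by its probe set of highest mean log2 signal over all arrays, and the others are described separately. Total RNA had been hybridized to 16 Affymetrix mouse arrays in 4 groups of 4: exosomes from oxidative stress (oxi exo), exosomes from normal conditions (norm exo), cells from oxidative stress (oxi cell) and cells from normal conditions (norm cell). All came from MC/9, an established mouse mast cell line, in medium with fetal bovine serum and Rat T-Stim, a growth supplement, and oxidative stress was 125 µM H2O2 for 24 h. Exosomes were filtered through 0.22 µm pores and spun down at 120000 g over 70 min. By the labels, the cell samples had been given exosomes of either condition, whereas the study's methods treat them as the donor cells. Both accounts give each sample the same condition name, but they are different treatments. Which of them holds could not be settled here, and comparisons with cells below follow the study's methods. The study names a pair of different cultures under normal conditions and does not say whether the other replicates were separate cultures, so p-values measure the spread between these samples, which may be technical. One cell line, 1 dose and 1 time were measured.

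Actin exists as a pool of monomers and as polar filaments that grow at one end. Thymosins and profilin hold or deliver monomers, cofilins and gelsolin cut filaments, capping proteins close their growing ends, and the Arp2/3 complex, switched on by WASP and WAVE proteins downstream of Rac and Cdc42, starts new branches on existing filaments. In mast cells the cortical actin network under the plasma membrane is remodelled when granules are released and when the cells spread or move.

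Many actin cytoskeleton genes are known targets of serum response factor, a transcription factor that responds to the monomer pool and binds the CArG box, a 10-base motif of 2 C, 6 A or T and 2 G. Promoters from RefSeq (GRCm38.p6) were found for 41 of the 46 genes and searched over the 250 bases before the start on both strands. None was found for Actb, Coro1b, Rac1, Rac2 and Twf2, so whether these have either motif is not known here. A CArG box lay in 4 of the 41 (9.76%), against 439 of all 27025 genes in the table (1.62%). The TATA box motif TATAAA lay in 3 of the 41, Myh9, Cdc42 and Arhgdib (7.32%), against 14.3% of all genes, and no gene of the list had both. The stretches with a CArG box are shown because these 4 genes can be set beside each other in the results below, with the CArG box in capitals. Each is on the strand of its gene. A match of letters is a description of the sequence and does not show binding.
Actg1 (chr11:120348551-120348610, minus strand): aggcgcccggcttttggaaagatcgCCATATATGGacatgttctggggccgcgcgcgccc
Arpc4 (chr6:113377863-113377897, plus strand): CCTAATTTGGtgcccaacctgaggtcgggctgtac
Vcl (chr14:20929148-20929205, plus strand): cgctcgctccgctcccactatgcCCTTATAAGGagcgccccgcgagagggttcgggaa
Myl6 (chr10:128493025-128493084, minus strand): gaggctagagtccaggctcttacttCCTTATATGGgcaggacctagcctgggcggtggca
The box began 90 bases before the start of Actg1, 250 before that of Arpc4, 227 before that of Vcl and 50 before a start of Myl6. Another start of Myl6 had no CArG box in its 250 bases. In the comparisons described below, Actg1 was lower in oxi exo than in norm exo and Arpc4 was higher in oxi cell than in norm cell. Vcl and Myl6 passed neither test. In oxi exo, Arpc4 and Vcl were above background on no array and Myl6 on 1, so changes of these genes in exosomes could hardly be measured. Whether genes with a CArG box moved as a group was not tested.

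The values are MAS5.0 signals, the summary intensity of a probe set on a linear scale, with the trimmed mean of each array set to 100. The background of an array was taken from 193 probe sets for 164 genes that belong to unrelated tissues, as their 95th percentile (olfactory, taste, lens, hair, casein, defensin, placental, tooth and gamete genes), and it ranged over 226 to 258.1 in oxi exo and 203.1 to 256.6 in norm exo, against 11.57 to 13.49 in oxi cell and 14.4 to 17.65 in norm cell. The background was 20.05 times higher in oxi exo than in oxi cell and 15.18 times higher in norm exo than in norm cell, and the spiked hybridization controls were 20.82 and 17.32 times higher. Less RNA in the sample and a lower share of a transcript in that RNA cannot be told apart on this scale. Of 11 mast cell markers, 2 were above background on all 4 oxi exo arrays and 8 on all 4 norm exo arrays, against 11 in oxi cell and 10 in norm cell, and Fcer1a, the IgE-binding chain of the IgE receptor, had 474.9 ± 188.9 in oxi exo, 1719 ± 439.4 in norm exo, 8906 ± 781.8 in oxi cell and 10920 ± 826.3 in norm cell (SD, n = 4 each). No marker of fibroblasts or smooth muscle was above background on all arrays of any group, and of 7 T lymphocyte markers 1 was in oxi exo, 1 in norm exo, 2 in oxi cell and 0 in norm cell. Of 6 platelet and megakaryocyte markers 1 was in oxi exo, 1 in norm exo, 3 in oxi cell and 3 in norm cell. Of 6 macrophage and neutrophil markers these numbers were 0, 0, 2 and 1.

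Actin cytoskeleton transcripts were partly below background in exosomes and nearly all above it in cells. Of the 43 genes, 11 were above background on all 4 oxi exo arrays, 13 on some and 19 on none, and in norm exo these numbers were 21, 7 and 15. In oxi cell and in norm cell 42 genes were above background on all 4 arrays, and the remaining gene, Actn1, which encodes the crosslinking protein alpha-actinin 1, on some. The coefficient of variation between the arrays of a group had a median over the genes of 38.9% in oxi exo and 24.8% in norm exo, against 5.35% in oxi cell and 4.54% in norm cell. The number of arrays limits the precision, and small changes were easier to detect in cells than in exosomes.

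Exosomes from oxidative stress carried lower signals of a number of actin cytoskeleton genes. They were lower in oxi exo than in norm exo for 12 of 43 genes and higher for 0 (limma, adjusted p under 0.05), whereas 1.70% of all probe sets were lower and 0.0311% higher. At an unadjusted p under 0.05 there were 24 genes lower and 0 higher (5.83% and 3.92% of all probe sets). Of the 11 mast cell markers, 6 were also lower in oxi exo than in norm exo, with a median of -1.25, and their part in the change was not tested. The 12 included both actins, the GTPases Rac1 and Rac2, coronins of classes 1a and 1b, gelsolin, Lasp1, the myosin heavy chain Myh9, the Arp2/3 subunit Arpc1a, the WAVE protein Wasf2 and thymosin beta 10, with log2 changes between -0.78 and -2.41. The median change of the 43 genes was -1.03, against 0.06 over all probe sets. The 43 include 13 genes whose brightest probe set was under background on all exosome arrays. With signals below background set to it, 30 genes remained, at a median of -0.64, against 0.06 over all probe sets kept. The signal was lower in all 4 pairs for 25 of the 43 genes and higher in all 4 pairs for 0. No share of all probe sets was taken for these counts, and same-numbered arrays did not deviate together, so the counts are a description. The arrays did not overlap, with oxi exo below, for 16 genes (4.09% of all probe sets). Among genes whose mean over these arrays was above background, 11 of 21 actin cytoskeleton genes were lower, against 20.9% of all 1546 such genes, with medians of -1.03 and -0.26. A gene can pass this filter through its norm exo arrays alone, so these shares are a description. The list had been drawn up with results of these data known, and Gsn and Lasp1 were named by the study from these same arrays.

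**Figure D1:**
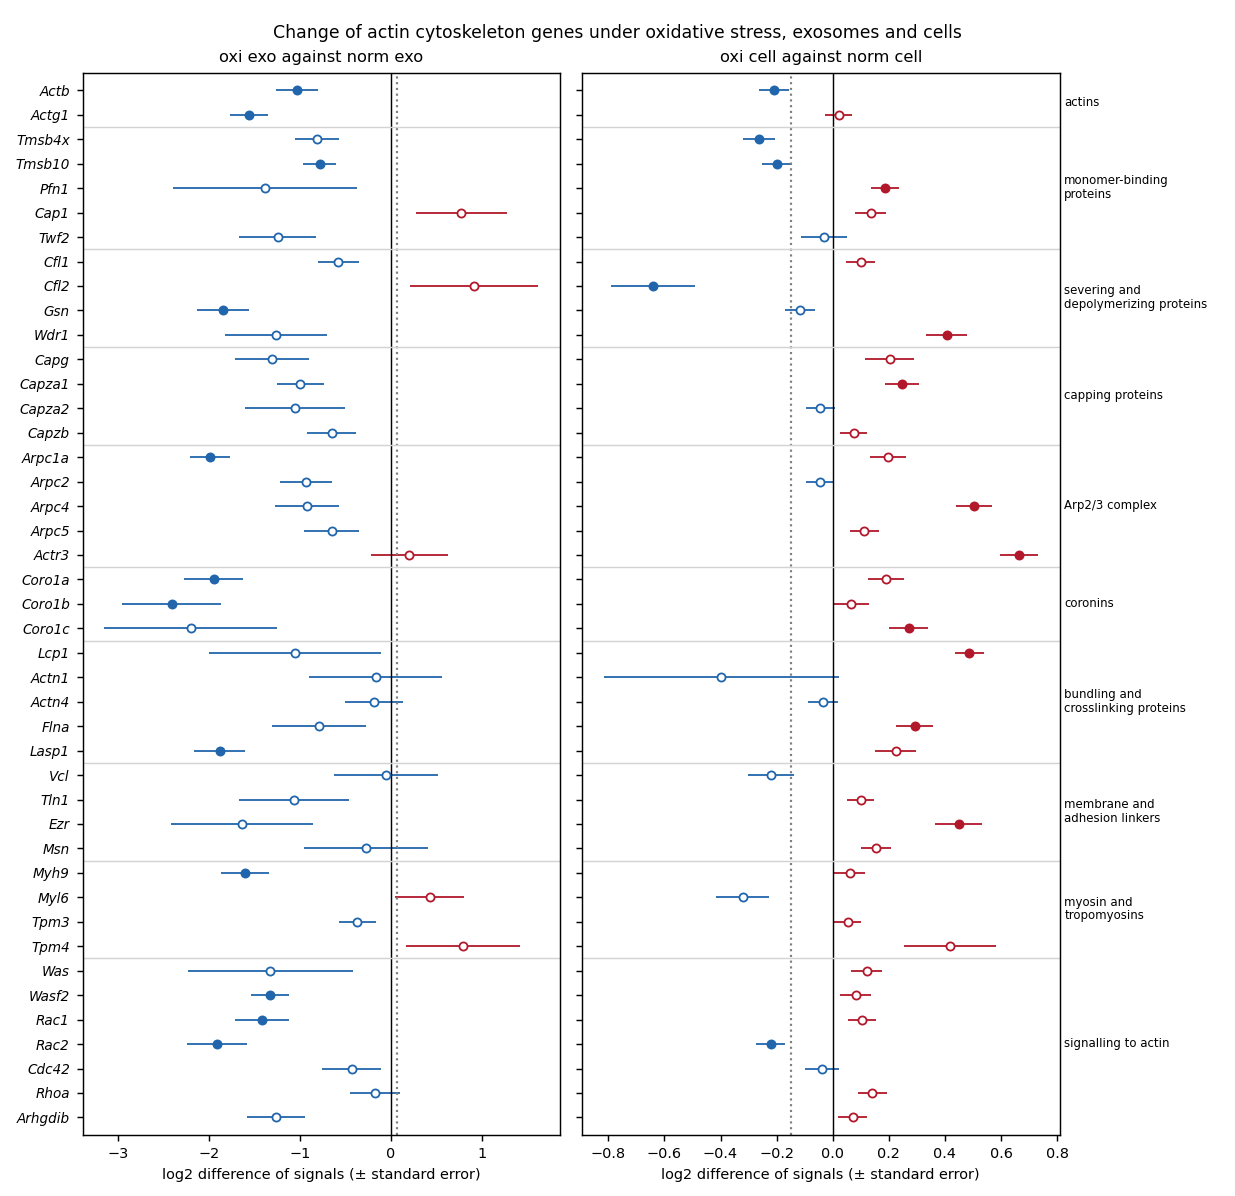
Log2 difference of signals between oxidative stress and normal conditions for 43 actin cytoskeleton genes grouped by role, in exosomes (oxi exo against norm exo, left) and in cells (oxi cell against norm cell, right), on axes of different range. Points are estimates from limma and bars standard errors (n = 4 arrays in each group), blue is lower and red higher under oxidative stress, filled points have an adjusted p under 0.05, and the dotted line is the median of all probe sets. In exosomes 12 filled points lie left of zero and 0 right of it, and in cells 5 lie left and 9 right.

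Both actins fell in exosomes. Actg1, which encodes cytoplasmic gamma-actin, had signals of 1241, 1429, 1166 and 575.5 in oxi exo, against 3810, 3519, 2413 and 2809 in norm exo. All oxi exo arrays were below all norm exo arrays, and the log2 change was -1.56 (standard error 0.21, adjusted p = 0.000496 from limma). Actb, which encodes cytoplasmic beta-actin, had 850.5, 566.5, 472.3 and 354.6 in oxi exo, against 1080, 1426, 844 and 1085 in norm exo. The highest oxi exo array just exceeded the lowest norm exo array, and the log2 change was -1.03 (standard error 0.24, adjusted p = 0.0307). The call of Actb was lost with quantile normalization (log2 change -0.46, adjusted p = 0.581) and on a scale set by the spiked controls (-1.004, adjusted p = 0.0943). It was also lost without the replicate block (-1.03, adjusted p = 0.0536) and without replicate 2 or 4 (adjusted p = 0.19 and adjusted p = 0.157). The call of Actg1 was lost with quantile normalization (-0.63, adjusted p = 0.194).

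Among the proteins that bind monomers, 1 of 5 passed the test. Tmsb10, which encodes thymosin beta 10, had 2142, 2307, 2022 and 1459 in oxi exo, against 4052, 4146, 2527 and 3010 in norm exo (log2 change -0.78, adjusted p = 0.0378). Quantile normalization turned its change to 0.29, and the call was lost without replicate 1, 2 or 4 (adjusted p from 0.109 to 0.269) or without the replicate block (adjusted p = 0.0925). Its relative Tmsb4x, thymosin beta 4, the main store of actin monomers in blood cells, had 546.3, 494, 607 and 263.1 in oxi exo, against 808.6, 1105, 722.6 and 635.4 in norm exo. The arrays of Tmsb4x did not overlap either, but its log2 change of -0.81 did not pass the test (adjusted p = 0.139). Pfn1 (profilin 1, which loads monomers with ATP) and Cap1 (a recycler of monomers) did not pass, and Pfn1 was not above background on any exosome array.

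Of 4 severing and depolymerizing proteins, gelsolin fell. Gsn had 228.9, 221.7, 399.8 and 171.7 in oxi exo, against 918.2, 1056, 646.2 and 922.7 in norm exo, and the log2 change was -1.84 (standard error 0.29, adjusted p = 0.00152). Only 1 of the 4 oxi exo arrays was above background for Gsn, and all 4 norm exo arrays were. Cfl1, the main cofilin outside muscle, was above background on every exosome array, with 539.1 ± 266.6 in oxi exo and 770 ± 281.2 in norm exo (log2 change -0.58, adjusted p = 0.369). Cfl2, the cofilin best known from muscle, was not above background on any exosome array. None of the 4 capping protein genes passed. Capza1, the alpha 1 subunit of the protein that caps growing ends, was closest, with 287.8, 292, 299 and 286.4 in oxi exo, against 699.4, 659.8, 368.2 and 667.7 in norm exo (log2 change -0.995, adjusted p = 0.078).

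In the branching machinery the subunits of one complex did not share a call. Arpc1a, which encodes a subunit of the Arp2/3 complex that contacts its activators, had 449.5, 539.5, 602.3 and 340.5 in oxi exo, against 2319, 2188, 1465 and 1673 in norm exo. Every norm exo array was far above every oxi exo array, and the log2 change of -1.99 had the smallest adjusted p of the 43 genes in this comparison (standard error 0.22, adjusted p = 0.000222). Arpc2, Arpc4 and Arpc5, further subunits of the same complex, had log2 changes of -0.93, -0.92 and -0.65 and did not pass (adjusted p = 0.167, adjusted p = 0.35 and adjusted p = 0.503). Actr3, the actin-related protein Arp3 of the complex, had 170.8 ± 71.55 in oxi exo and 142.6 ± 35.42 in norm exo (log2 change 0.20, adjusted p = 0.927). Wasf2, the WAVE protein that switches the complex on, had 417.8, 599.5, 447 and 428.2 in oxi exo, against 1267, 1516, 923.2 and 1073 in norm exo. The Wasf2 arrays did not overlap, and the log2 change was -1.33 (adjusted p = 0.0016).

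Of 3 coronins, which bind filaments and the Arp2/3 complex, 2 were called lower. Coro1a, the coronin of blood cells, had 286.3, 274.8, 407.2 and 81.21 in oxi exo, against 1096, 929.3, 706.5 and 802.3 in norm exo (log2 change -1.95, adjusted p = 0.00258). Coro1b, a coronin of the cell's leading edge, had 24.52, 41.62, 219.4 and 32.53 in oxi exo, against 379.4, 217.2, 293.7 and 239.4 in norm exo. No oxi exo array was above background for Coro1b, so the signals give only a bound of at least 1.12-fold, beside a fitted log2 change of -2.41 (limma, adjusted p = 0.0292). With signals below background set to it, the log2 change was -0.16 and did not pass (limma, adjusted p = 0.532). One oxi exo array reached the lowest norm exo array, and the call was lost without replicate 1, 2 or 4 (adjusted p up to 0.198). It was also lost with quantile normalization (adjusted p = 0.0558) and on the spiked scale (adjusted p = 0.0556). Here and below, a value of at least N-fold sets the mean of the brighter group against the background of the dimmer one. Coro1c was not above background on any exosome array.

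Rac1 and Rac2 fell in exosomes. Rac1, the widely expressed GTPase that drives branched filaments at the cell edge, had 205.4, 232.9, 147.4 and 125.5 in oxi exo, against 423.5, 477.6, 545.5 and 410.1 in norm exo (log2 change -1.42, adjusted p = 0.016). Rac2, its close relative in blood cells, had 92.42, 201.2, 306.7 and 165.5 in oxi exo, against 850.1, 630.2, 616.7 and 569.2 in norm exo (log2 change -1.91, adjusted p = 0.00331). For both GTPases all oxi exo arrays were below all norm exo arrays, and 1 of 4 oxi exo arrays was above background. The call of Rac1 was lost without replicate 3 or 4 (adjusted p = 0.0779 and adjusted p = 0.0696). Rhoa, the GTPase of contractile fibres, had 284.5 ± 16.35 in oxi exo and 324.4 ± 57.58 in norm exo, and Cdc42, the GTPase of cell polarity and filopodia, 206.1 ± 66.45 and 270.7 ± 62.33 in the same groups. Neither passed (adjusted p = 0.893 and adjusted p = 0.724). Arhgdib did not pass although its arrays did not overlap (log2 change -1.26, adjusted p = 0.0629).

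Lasp1 and Myh9 completed the set of genes that fell. Lasp1, an adaptor of actin bundles at adhesions, had 486.8, 1155, 971.3 and 455.4 in oxi exo, against 3854, 3209, 1601 and 2314 in norm exo (log2 change -1.88, adjusted p = 0.00101). Myh9, the heavy chain of non-muscle myosin IIA, had 261.8, 283.5, 200.2 and 144.5 in oxi exo, against 821.8, 822, 448.4 and 607.6 in norm exo (log2 change -1.61, adjusted p = 0.00217). Neither gene had overlapping arrays. The tropomyosin Tpm3, a coat of filaments, was bright on every exosome array, with 718.1 ± 122.3 in oxi exo and 923.6 ± 121.1 in norm exo (log2 change -0.37, adjusted p = 0.594). None of the 4 linkers to membrane and adhesions (Vcl, Tln1, Ezr and Msn) passed, and the brightest probe set of each was below background on every exosome array. The 31 genes that did not pass had log2 changes between -2.20 (Coro1c) and 0.92 (Cfl2). Quantile normalization left 5 of the 12 calls (Gsn, Arpc1a, Coro1a, Myh9 and Rac2, with 0.613% of all probe sets lower). A scale set by the spiked controls left 9 (1.29%), and 8 of the 12 held whichever replicate was left out. Among genes above background, a filter that norm exo arrays alone can pass, 6.86% were lower after quantile normalization and 15.4% on the spiked scale. Of the 21 actin cytoskeleton genes among them, 5 and 9 were lower. The paired test on log2 signals named in the study's methods gave 0 calls after adjustment over all probe sets and 20 genes lower at an unadjusted p under 0.05 (4.41% of all probe sets).

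**Figure D2:**
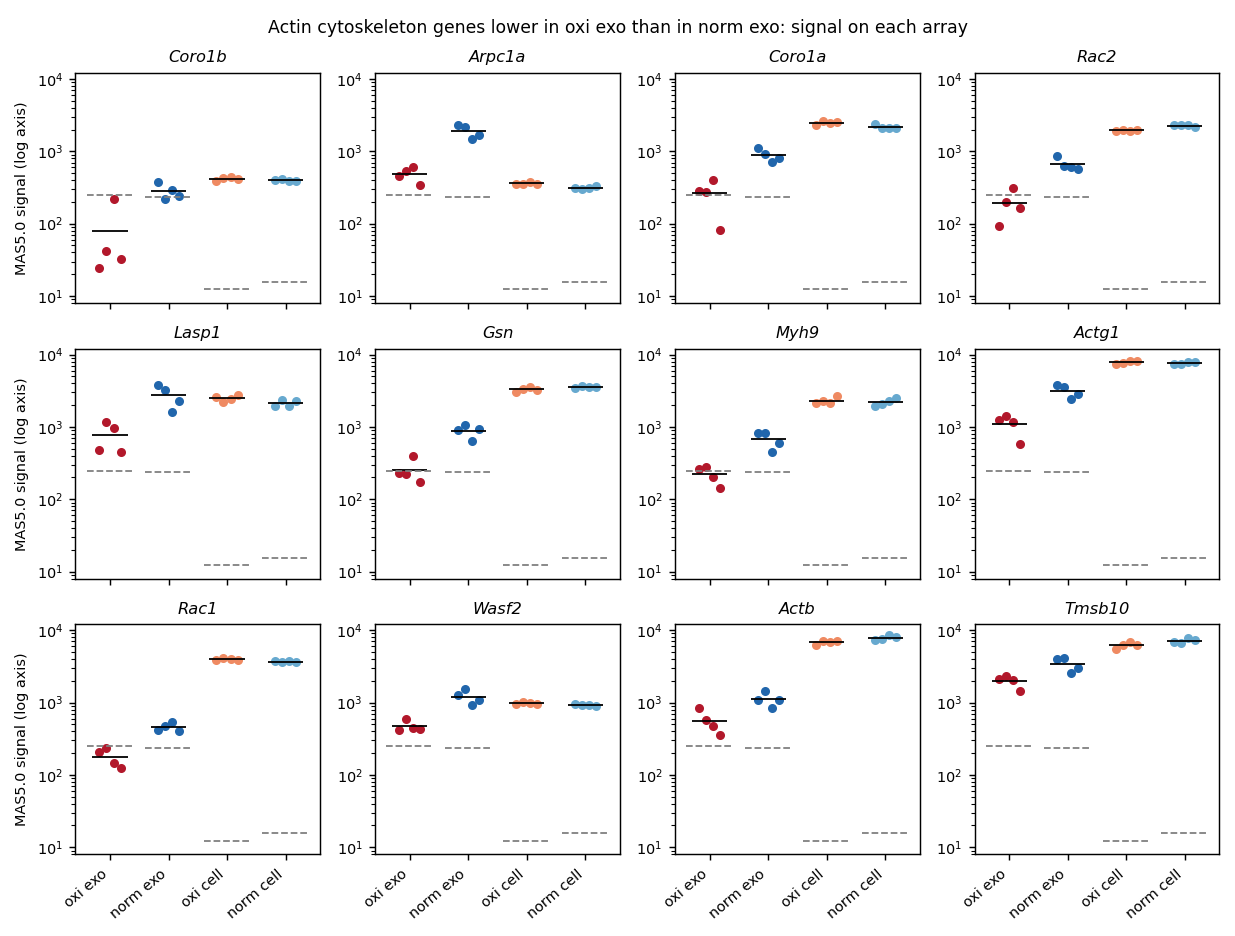
Signal on each array (log axis) of the 12 actin cytoskeleton genes called lower in oxi exo than in norm exo, in the 4 groups of 4 arrays. Points are arrays, solid lines group means and dashed lines the mean background of the group. In 10 of the 12 panels the oxi exo and norm exo arrays do not overlap, and the signals of Arpc1a in norm exo, 1465 to 2319, lie above those in both groups of cells.

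In cells actin cytoskeleton genes moved in both directions. Of the 43 genes, 5 were lower in oxi cell than in norm cell and 9 higher, against 5.51% of all probe sets lower and 4.31% higher. Of the 9856 genes whose mean over these arrays was above background, 42 of the 43 among them, 9.75% were lower and 11.7% higher, so that the count of lower genes lay near the share of comparable genes. The split depended on the scale. Quantile normalization gave 1 lower and 11 higher (4.04% and 4.61% of all probe sets, and 8.44% and 12.1% of genes above background). The spiked controls as scale gave 0 lower and 33 higher (0.955% and 14.3%, and 38.8% higher among genes above background). The median over all probe sets was -0.15 as deposited and 0.15 on the scale of the spiked controls, and the median of the 43 genes was 0.10 and 0.40. The largest rises were in the Arp2/3 complex. Actr3, at 2445, 2137, 2256 and 2139 in oxi cell, against 1511, 1172, 1681 and 1346 in norm cell, rose by 0.66 on the log2 scale (standard error 0.07, adjusted p = 0.000237 from limma). Arpc4 had 640, 558.2, 561.8 and 558.9 in oxi cell, against 416, 419.2, 374.6 and 424.7 in norm cell (log2 change 0.50, adjusted p = 0.000733). Neither gene overlapped between the conditions, and both calls held under both other scalings. The other measured subunits Arpc1a, Arpc2 and Arpc5 did not pass (log2 changes of 0.20, -0.05 and 0.11).

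Lcp1 (L-plastin, the bundling protein of blood cells) had 1436, 1521, 1388 and 1351 in oxi cell, against 1034, 1041, 993.1 and 995.6 in norm cell (log2 change 0.49, adjusted p = 0.000293). Ezr (ezrin, a linker of filaments to the membrane) had 312.5, 273.1, 239.6 and 273 in oxi cell, against 187.7, 208.7, 199 and 206.7 in norm cell (log2 change 0.45, adjusted p = 0.00652). Wdr1, a helper of cofilin, had 585.2, 547.3, 468.5 and 500.2 in oxi cell, against 418.6, 360.6, 406.2 and 397.2 in norm cell (log2 change 0.41, adjusted p = 0.00478). These 3 genes, each without overlap between the groups, were also called higher under both other scalings. The crosslinker Flna (log2 change 0.29), Coro1c (0.27), the capping subunit Capza1 (0.25) and profilin, Pfn1 (0.19), were called higher too. Capza1 rose in cells while its partner subunit Capza2 had a change of -0.04 (adjusted p = 0.682).

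Of the 5 genes lower in oxi cell, Cfl2 had the largest change and the other 4 changes from -0.20 to -0.26. Cfl2 had 65.27, 69.86, 46.63 and 53.91 in oxi cell, against 74.56, 93.9, 98.14 and 98.87 in norm cell (log2 change -0.64, adjusted p = 0.0197). Tmsb4x had 6340, 7322, 7673 and 7121 in oxi cell, against 8415, 7907, 9099 and 8712 in norm cell (log2 change -0.26, adjusted p = 0.0133). Rac2 had 1926, 1974, 1924 and 1947 in oxi cell, against 2283, 2292, 2337 and 2154 in norm cell (log2 change -0.22, adjusted p = 0.0171). The groups did not overlap for these 3 genes. Actb (log2 change -0.21, adjusted p = 0.0311) and Tmsb10 (-0.20, adjusted p = 0.0363) were lower by about as much. On the scale of the spiked controls the changes of Tmsb4x, Rac2, Actb and Tmsb10 were 0.03, 0.07, 0.09 and 0.10, so that their direction turned, and after quantile normalization Rac2 alone was still called lower. Actg1, at 7812 ± 455.1 in oxi cell and 7691 ± 293.7 in norm cell, had a change of 0.02 (adjusted p = 0.857), and it was called higher after quantile normalization (0.24, adjusted p = 0.00349) and on the scale of the spiked controls (0.32, adjusted p = 0.00204). Gsn (-0.12, adjusted p = 0.228) and Lasp1 (0.22, adjusted p = 0.0851) did not pass in cells. The background was 0.7971 times as high in oxi cell as in norm cell, and the spiked controls 0.8144 times. Actr3, Arpc4, Lcp1, Ezr and Wdr1 were called whichever replicate was left out, and each of the other 9 was lost without at least 1 replicate. Of the 5 lower genes, 3 were called without replicate 1, 3 without replicate 2, 2 without replicate 3 and 0 without replicate 4. The methods' paired test gave 0 calls after adjustment, and 8 lower and 19 higher at an unadjusted p under 0.05 (10.7% and 6.80% of all probe sets). Of the mast cell markers, 8 were lower and 2 higher in oxi cell.

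The change in exosomes was tested against the change in cells directly, through the 8 differences within pairs. The change was more negative in exosomes for 8 of 43 genes (Arpc1a, Coro1a, Lasp1, Gsn, Myh9, Actg1, Rac1 and Wasf2) and more positive for 0. Of all probe sets, 1.18% were more negative and 0.0289% more positive. Among genes above background, a filter that cell arrays alone can pass, 3.30% were more negative. At an unadjusted p under 0.05 the numbers of genes were 25 and 1 (6.30% and 5.49% of all probe sets). Arpc1a had the largest difference of these, with a change of -1.99 in exosomes and 0.20 in cells (difference -2.19, standard error 0.33, adjusted p = 0.0162 from limma). Actg1 differed by -1.58 (adjusted p = 0.0162). Actb, which was called lower in both compartments, did not differ past the threshold (difference -0.82, adjusted p = 0.24), and neither did Rac2 (-1.69, adjusted p = 0.0568). These calls were less stable than those within exosomes: quantile normalization gave 0 of them, leaving out replicate 1, 2 or 4 gave 0, 0 and 1, and leaving out replicate 3 gave 8.

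Most actin cytoskeleton genes were lower in exosomes than in cells. In norm exo, 33 of 43 genes were lower than in norm cell and 2 higher, whereas 19.0% of all probe sets were lower and 57.7% higher. The median of the 43 genes was -1.78, and that of all probe sets 2.23. In oxi exo, 37 genes were lower than in oxi cell and 3 higher, against 19.4% and 60.8% of all probe sets, with medians of -3.35 and 2.67. Among genes whose mean over the arrays was above background, 51.9% were lower and 18.2% higher in norm exo (median -0.89). In oxi exo 54.5% of such genes were lower and 18.0% higher (median -1.14). A gene can pass this filter through its cell arrays alone, so these shares and medians are a description. Of the 11 mast cell markers, 10 were lower in each comparison. Quantile normalization brought the median of all probe sets to 0.15 in norm exo and 0.21 in oxi exo. It gave 24 genes lower and 3 higher in norm exo (22.1% and 18.5% of all probe sets) and 30 lower and 2 higher in oxi exo (23.7% and 20.7%). Among genes above background, quantile normalization gave 44.5% lower and 14.4% higher in norm exo, and 50.3% and 11.8% in oxi exo. On the scale of the spiked controls the medians of all probe sets were -1.88 and -1.71. The counts there were 43 lower and 0 higher in norm exo (51.3% and 2.74%) and 42 lower and 0 higher in oxi exo (49.9% and 3.95%). Among genes above background, 97.2% were lower in norm exo and 95.9% in oxi exo on that scale. The counts on the spiked scale thus lay near the share of comparable genes. The 2 comparisons share no arrays.

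**Figure D3:**
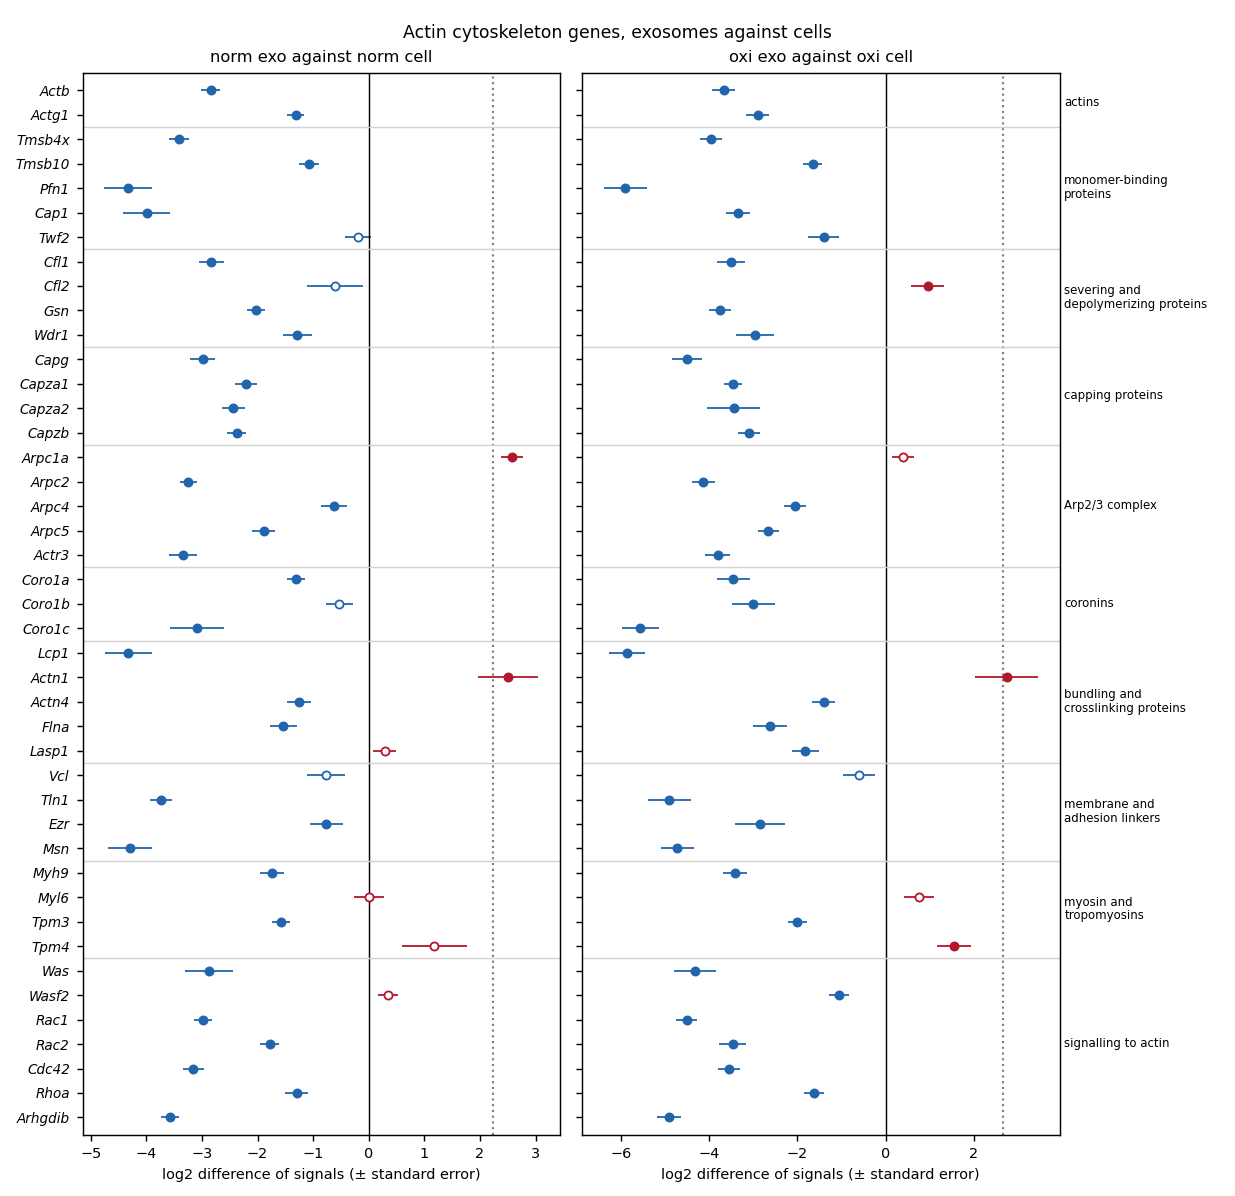
Log2 difference of signals between exosomes and cells for 43 actin cytoskeleton genes, under normal conditions (norm exo against norm cell, left) and oxidative stress (oxi exo against oxi cell, right). Points are estimates from limma and bars standard errors (n = 4 arrays in each group), filled points have an adjusted p under 0.05, and the dotted line is the median of all probe sets. Most genes lie left of zero, while the median of all probe sets lies right of it, at 2.23 and 2.67. The medians of genes above background, a filter that cell arrays alone can pass, are -0.89 and -1.14 (not drawn).

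The actins were lower in exosomes under every scaling. Actb had 561 ± 211.6 in oxi exo and 6780 ± 429.9 in oxi cell (log2 difference -3.67, adjusted p = 1.53e-05), and 1109 ± 239.6 in norm exo and 7838 ± 553.1 in norm cell (-2.84, adjusted p = 2.63e-06). Actg1 had 1103 ± 368.7 in oxi exo and 7812 ± 455.1 in oxi cell (-2.90, adjusted p = 3.78e-05), and 3138 ± 640.3 in norm exo and 7691 ± 293.7 in norm cell (-1.32, adjusted p = 8.97e-05). Gsn had 255.5 ± 99.49 in oxi exo and 3291 ± 217.1 in oxi cell (-3.76, adjusted p = 1.21e-05), and 885.7 ± 172 in norm exo and 3561 ± 71.61 in norm cell (-2.03, adjusted p = 1.28e-05).

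Several abundant transcripts of cells were below the exosome background. Pfn1 had 16.7 to 137.9 in oxi exo, against 1773 ± 66.68 in oxi cell, and 21.35 to 169.7 in norm exo, against 1559 ± 70.55 in norm cell. It was thus lower by at least 7.17-fold in the first of these comparisons and by at least 6.66-fold in the second. Tln1 (talin 1, which ties integrins to actin) was lower by at least 8.69-fold in oxi exo and by at least 8.57-fold in norm exo. Msn (moesin, the membrane linker of blood cells) was at least 8.85-fold and at least 8.40-fold lower. Lcp1 was at least 5.76-fold and at least 4.34-fold lower in the same 2 comparisons. Arhgdib, above background on all norm exo arrays and on no oxi exo array, differed by at least 19.4-fold, with oxi exo below oxi cell (adjusted p = 7.86e-06), and its log2 difference was -3.58 in norm exo against norm cell (adjusted p = 9.64e-07). Cap1 (log2 difference -3.99) was also among the lowest in norm exo. The directions of these 6 genes held under both other scalings.

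Arpc1a stood apart. It was the only one of the 43 genes that was called higher in norm exo than in norm cell while above background on every array of both groups, with 1911 ± 408 in norm exo and 314.3 ± 10.47 in norm cell (log2 difference 2.58, adjusted p = 8.76e-06). In oxi exo it had 482.9 ± 113.8, against 360.6 ± 13.87 in oxi cell (0.39, adjusted p = 0.173). Relative to the median of all probe sets, the difference in norm exo was small, since that median was 2.23, and on the scale of the spiked controls Arpc1a was lower in norm exo (-1.53, adjusted p = 0.00015). Quantile normalization gave 3.50. Relatives of Arpc1a in the complex were lower in norm exo than in norm cell: Arpc2 (-3.25), Arpc5 (-1.89), Actr3 (-3.35) and Arpc4 (-0.62, which quantile normalization turned to 0.17). Lasp1 and Wasf2 did not differ past the threshold between norm exo and norm cell (0.28, adjusted p = 0.223, and 0.35, adjusted p = 0.101), whereas both were lower in oxi exo than in oxi cell (-1.82 and -1.06, adjusted p = 0.000543 and adjusted p = 0.00194). Quantile normalization turned the last 2 values to 0.22 and 0.69, and those in norm exo became 1.58 and 1.70, both called higher. On the scale of the spiked controls both genes were lower in norm exo (-3.83 and -3.76).

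The other calls of higher signals in exosomes rest on values under the background. Actn1 had 18.98 to 136.7 in oxi exo and 63.43 to 81.99 in norm exo, against 6.875 to 12.02 in oxi cell and 9.985 to 16.97 in norm cell. Tpm4, a tropomyosin, and Cfl2 were called higher in oxi exo than in oxi cell, at 77.87 to 179.5 and 54.97 to 152.8, also below background. No fold is given for these 3 genes, and on the scale of the spiked controls their differences were negative.

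Different probe sets of a gene gave different answers. Of the 66 probe sets that were not the brightest of their gene, 9 were called lower in oxi exo than in norm exo and 0 higher. Lasp1 had 9 probe sets, of which 5 were called lower in oxi exo (log2 changes from -1.21 to -2.42), and the 4 others had changes from -0.73 to 0.72. Gsn had 6, of which 4 were called lower (-1.84 to -2.46). Myh9 had 5, of which 2 were called lower (-1.61 and -2.33). Of the 12 genes called lower in oxi exo, 3 had 1 probe set and 9 had more. The second probe set was also called lower for 4 of these 9 (Gsn, Lasp1, Myh9 and Coro1a) and not for Actb (-0.67, adjusted p = 0.213), Tmsb10 (-1.16, adjusted p = 0.0908), Wasf2 (-0.34, adjusted p = 0.811), Rac1 (-1.63, adjusted p = 0.25) and Rac2 (0.18, adjusted p = 0.961). The brightest probe sets of Lasp1 and Gsn end in x_at, a suffix that Affymetrix gives to sets whose probes may also match other transcripts. Those of Actg1, Tmsb10 and Rac1 end in s_at, which is given to sets shared by several transcripts.

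**Figure D4:**
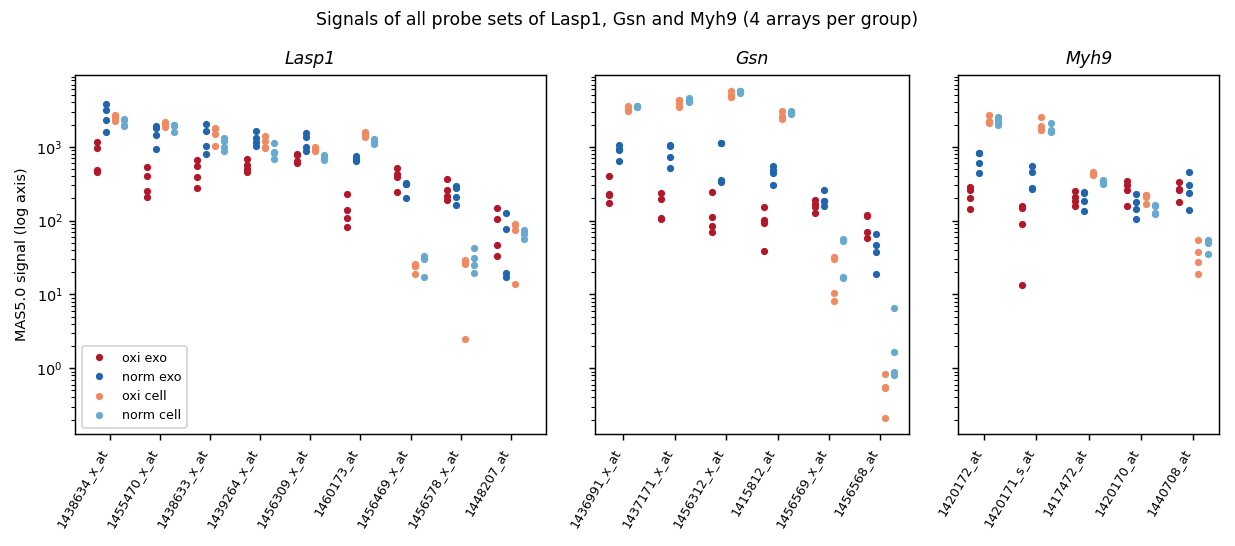
Signals (log axis) of all probe sets of Lasp1, Gsn and Myh9, ordered by mean signal, with 1 point per array and 4 arrays in each group. The 4 brightest sets of Lasp1 and of Gsn have oxi exo below norm exo, and the dimmest set of Gsn lies below the exosome background (203.1 to 258.1) on all 8 exosome arrays.

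Between exosomes and cells, 14 of the 66 further probe sets were called in the direction opposite to that of their gene's brightest set in norm exo, and 16 in oxi exo. The second probe set of Actb had 512.1 ± 80.96 in oxi exo and 123.6 ± 23.69 in oxi cell (log2 difference 2.06, adjusted p = 0.00018), and 816.5 ± 149.2 in norm exo and 199.2 ± 43.25 in norm cell (2.05, adjusted p = 6.05e-05). All these means are above background, and on the scale of the spiked controls the differences were -2.32 and -2.06. The second probe set of Ezr had 494.4 ± 149.2 in oxi exo and 22.4 ± 24.12 in oxi cell (5.02, adjusted p = 4.00e-05), whereas its brightest one had 51.83 ± 33.64 and 274.6 ± 29.81 (-2.85, adjusted p = 0.00136).

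The array carries 3 control probe sets along the Actb transcript, which were left out of the fits. The one at the 3' end had 589 ± 133.7 in oxi exo, 1475 ± 339.2 in norm exo, 8256 ± 650.1 in oxi cell and 9817 ± 748.9 in norm cell (SD, n = 4 each). The one at the 5' end had 157.2 ± 47.07 in oxi exo, 280.7 ± 58.98 in norm exo, 5983 ± 521 in oxi cell and 6853 ± 473.1 in norm cell. No oxi exo array reached its background there, nor did replicate 4 of norm exo (203.6 against 224.2). The ratio below thus rests on a value under background in oxi exo and on that norm exo array, which has the highest ratio. The 3' to 5' ratio was 2.775, 4.475, 4.358 and 3.833 in oxi exo, against 6.106, 4.933, 3.812 and 6.55 in norm exo, with overlap. It was 1.302 to 1.549 in oxi cell and 1.412 to 1.456 in norm cell. By exact two-sided permutation tests the ratio differed between exosomes and cells at p = 0.0286 in each condition, the smallest p that 4 against 4 arrays allow (adjusted over 4 comparisons 0.0571), and it did not pass between oxi exo and norm exo (p = 0.143, adjusted p = 0.19) or between oxi cell and norm cell (p = 0.4). The part of this ratio in the differences between exosomes and cells was not tested.

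**Figure D5:**
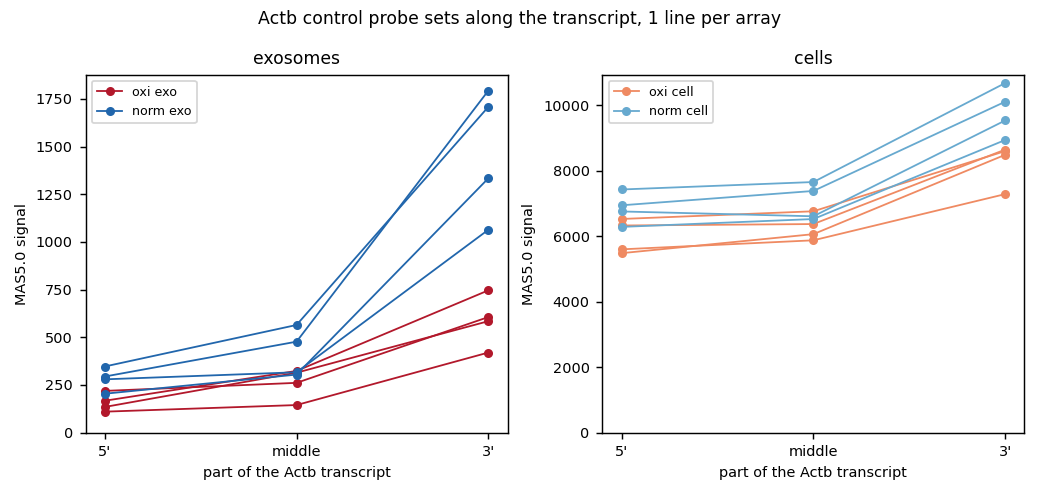
Signals of the 3 Actb control probe sets from the 5' end to the 3' end of the transcript, with 1 line per array, in exosomes (left, oxi exo and norm exo) and cells (right, oxi cell and norm cell), on axes of different range. Exosome lines climb towards the 3' end, with a 3' to 5' ratio between 2.775 and 6.55, while those of cells are flatter, between 1.302 and 1.549. The 5' signals of all oxi exo arrays and of replicate 4 of norm exo, which has the ratio of 6.55, are under background.

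A second list held other genes of actin regulation, of which 83 were measured. In oxi exo 9 of them were lower than in norm exo and 0 higher (1.70% and 0.0311% of all probe sets), at a median of -0.19, against -1.03 for the 43 genes above. Among genes above background, a filter that norm exo arrays alone can pass, 20.9% were lower. Many of the 83, such as Dstn, Hcls1 and Nckap1, were above background on no exosome array. The difference between the medians is therefore not a measured difference between the lists. Fermt3 (kindlin 3, the integrin activator of blood cells) had 419.9 ± 164.8 in oxi exo and 1903 ± 518 in norm exo (log2 change -2.23, adjusted p = 0.000186). Plec (plectin, a crosslinker of filament systems) and Cnn2 (calponin 2) were lower too, at fitted changes of -2.76 and -2.39, but on no oxi exo array above background. Coro7 and Ctnna1, also among the 9, were named by the study from these arrays. In oxi cell 6 of the 83 were lower than in norm cell and 7 higher, near the share of all probe sets (5.51% and 4.31%) and of genes above background (9.75% and 11.7%). Cotl1 (coactosin-like protein, a filament binder) had 2919 ± 268.7 in oxi cell and 1901 ± 155.6 in norm cell (log2 change 0.62, adjusted p = 0.000186). Pls3 (plastin 3) and Tpm1 (tropomyosin 1) rose by 0.61 and 0.53, and Myo1f (a class I myosin), Wasl (neural WASP) and Ssh1 (a cofilin phosphatase) had changes of -0.58, -0.55 and -0.46. The change was more negative in exosomes than in cells for 6 of the 83 and more positive for 0. The shares of all probe sets were 1.18% and 0.0289%, with 3.30% more negative among genes above background. The largest difference was at Cotl1 (-2.95, adjusted p = 0.0198 from limma), which was above background on 0 oxi exo arrays and 1 norm exo array. In oxi exo against oxi cell, 52 of the 83 were lower and 20 higher, and in norm exo against norm cell 49 were lower and 21 higher. Over all probe sets, 19.4% were lower and 60.8% higher in the first of these comparisons, and 19.0% and 57.7% in the second. The shares among genes above background were 54.5% lower and 18.0% higher in the first and 51.9% and 18.2% in the second. Cell arrays alone can bring a gene past that filter.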

How the data were processed

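The authors hybridized total RNA to Affymetrix mouse arrays and deposited MAS5.0 signal intensity values on a linear scale (GCOS 1.2, per the labels), with the mean of each array set to 100 after trimming 2% at each end. The paper and the labels name different versions of the array. Detection calls and scanner images were not used here. After 64 of 45101 probe sets (Affymetrix controls) were left out, limma 3.58.1 (lmFit, eBayes with trend, in R 4.3.3) was run on log2 signals. The replicate number was the block, as the study's methods name a paired test, with Benjamini-Hochberg adjustment over 45037 probe sets at 0.05. Actb control ratios were compared by exact permutation tests. Per-array values were given for the actins, Gsn, Lasp1, the largest and smallest changes past the threshold with 1 direction in all 4 pairs, and family pairs whose calls differed. Of the second list, up to 3 genes a direction were named. The members and lists were chosen with earlier results of these data known. The alternatives were no block, quantile normalization, scaling to 9 spiked control probe sets, only probe sets above the median, log2(signal + 100), the methods' paired test, signals below background set to it, the second probe set of each gene and each replicate number left out. Fits were tested on simulated data. Python 3.11.15 was used.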

Additional observations from a re-analysis of the deposited data

Results flagged for a closer look

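For 8 genes the change under oxidative stress differed between exosomes and cells by the test of the difference itself (limma, 8 differences within pairs). It was more negative in exosomes for 1.18% of all probe sets and for 3.30% of genes above background. The log2 difference of the changes was -2.19 for Arpc1a, -2.14 for Coro1a, -2.10 for Lasp1, -1.73 for Gsn, -1.67 for Myh9, -1.58 for Actg1, -1.52 for Rac1 and -1.41 for Wasf2, with adjusted p from 0.0162 to 0.0371. Each was negative in all 4 pairs, but so were 28 of the 43 genes, and 0 of the 8 calls held whichever replicate was left out.

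In 12 of 172 groups of 4 arrays, 1 array of a gene lay far from the other 3, where chance gives about 1 in 20, or 8.6 groups. Of these, 4 were in oxi exo, 3 in norm exo, 2 in oxi cell and 3 in norm cell. In oxi exo, Pfn1 had 137.9 against 16.7 to 18.93 on the other arrays, Cfl2 54.97 against 129.3 to 152.8, Capza2 12.65 against 152.6 to 193.2 and Tln1 15.61 against 100.6 to 145, all below background. In norm exo, Capza1 had 368.2 against 659.8 to 699.4, Vcl 51.99 against 111.6 to 128.2 and Tln1 114.5 against 160.7 to 169.7. In oxi cell, Arpc4 had 640 against 558.2 to 561.8 and Flna 496.4 against 546.6 to 557.5. In norm cell, Arpc4 had 374.6 against 416 to 424.7, Twf2 380.6 against 353.4 to 356.4 and Coro1a 2411 against 2082 to 2114.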

How the results depend on the processing

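The 12 genes lower in oxi exo than in norm exo became 5 with quantile normalization, 7 with the second probe set of each gene (3 of them genes with 1 probe set, whose value is the same) and 0 with the methods' paired test, and 8 to 12 with a replicate left out, the lowest without replicate 4. Tmsb10 turned to 0.29 with quantile normalization and Rac2 to 0.18 with its second probe set. In cells the 5 lower genes became 3 without the replicate block, 1 with quantile normalization, 0 with scaling to the spiked controls, 0 with the paired test, 3 with the second probe set and 0 to 3 with a replicate left out. The 9 higher became 33 with scaling to the spiked controls, 0 with the paired test and 6 to 8 with a replicate left out. On the spiked scale Actb, Gsn, Tmsb4x, Rac2 and Tmsb10 turned to 0.088, 0.18, 0.032, 0.075 and 0.10, with quantile normalization Tmsb10 to 0.026, and with the second probe set Ezr to -1.59.

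The 2 genes higher in norm exo than in norm cell became 0 on the spiked scale, 1 with only probe sets above the median, 7 with a floor at background, 7 with the second probe set and 2 to 5 with a replicate left out, the highest without replicate 3. Lasp1, Arpc1a and Actn1 turned to -3.83, -1.53 and -1.60 on the spiked scale, and Tmsb10, Arpc4 and Actn1 to 0.024, 0.17 and -0.073 with quantile normalization. Ezr turned to 0.22 with the floor, and Actb, Lasp1 and Ezr to 2.05, -0.35 and 3.50 with the second probe set. The 3 genes higher in oxi exo than in oxi cell became 0 on the spiked scale, 6 with the floor, 1 with the paired test and 7 with the second probe set. Actn1, Tpm4 and Cfl2 turned to -1.64, -2.83 and -3.43 on the spiked scale, Lasp1, Wasf2 and Cfl2 to 0.22, 0.69 and -0.36 with quantile normalization, and Actb, Coro1c, Capg, Wasf2 and Cfl2 to 2.06, 1.17, 0.85, 0.52 and -0.78 with the second probe set.

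The 8 genes whose change was more negative in exosomes than in cells became 0 with quantile normalization, 14 with log2(signal + 100), 25 with the floor (3 more positive), 0 with the paired test and 0 to 8 with a replicate left out (0 without replicate 1 or 2, 1 without replicate 4). Actb turned to 0.0072 with its second probe set. The floor at background leaves out probe sets that are at the floor on every array, so fewer were tested. The cause of the other shifts was not tested.

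Same-numbered arrays did not deviate together: the correlation of their deviations from the group means, across probe sets, was -0.0164 to 0.0224 between oxi exo and norm exo and was over 0.1 for no number in any pair of groups, so the labels' numbers are a pairing by the study's methods only. Without the replicate block 10 genes were lower in oxi exo than in norm exo, 3 lower and 10 higher in oxi cell than in norm cell, and 12 changed more negatively in exosomes than in cells. The brightest probe sets of 13 genes were under the background on all exosome arrays, and at these no change between oxi exo and norm exo could be measured.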
